A study of Mus musculus with 12 samples.

Results

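The comparison described here is that of undivided mouse B cells 10 h after LPS with undivided B cells 3 h after LPS. Its members were taken by library label: replicates 1 and 2 of the 3 h stage (B3-I and B3-II) and replicates 1 and 2 of the 10 h stage (B10-I and B10-II), which makes 4 of the 12 RNA sequencing libraries of the series. No measured value entered the choice. The question is which gene functions switch off or on between the 3 h and 10 h stages while the cells have not yet divided, and how far the answer moves with the scaling of the libraries.

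The study followed B cells from the naive state through activation to plasmablasts, with duplicate polyA RNA libraries at 6 stages. Splenic B cells of male C57BL/6 mice (C57BL/6 Pep3b background) were isolated by negative selection, labelled with the division dye CTV and cultured with LPS of Salmonella typhosa. Both stages compared here were sorted as TCRβ-, CD69+ cells with the highest CTV signal, so the gate itself required the activation marker CD69 and an undiluted dye. By the labels and methods the 3 h and 10 h groups share strain, sex, tissue, culture and stimulus and differ in the time with LPS. Whether they share mice, sorts or library batches is not stated. The naive, 33 h, expanded and plasmablast libraries enter the fit, and naive and 33 h levels are given below to read the change against. Each stage has 2 libraries, LPS was the only stimulus, and cells that died or left the CD69+ gate were not seen. The 3 h libraries held 23026619 and 37947217 counts and the 10 h libraries 47757637 and 37732672.

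As background, LPS is a bacterial lipid that B cells sense through Toll-like receptor 4. Signalling reaches NF-kB and MAP kinases within minutes and switches on immediate early genes, whose products include both transcription factors and the brakes that later silence the response. A resting B cell that is to divide then has to grow, build ribosomes and mitochondria, and license its DNA for replication before the S phase begins. Interferon-stimulated genes respond to type I interferon, which LPS can also induce.

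In the comparison of 12750 genes, 2221 genes were higher at 10 h (17.4%) and 1711 were lower (13.4%) by more than 1.5-fold at an adjusted p under 0.05, so 30.8% of genes changed. All values are TMM-scaled unless another scaling is named, levels are RPKM (read counts scaled by transcript length and by effective library size), and every error is the SE of the log2 fold change from the fit with 2 libraries a group. The median log2 fold change was 1.39 among genes called up and -1.40 among genes called down, against 0.02 over all tested genes. Changes of 4-fold or more were seen in 519 of the genes called up and 478 of those called down. Among the genes called up 129 had no more than 3 counts in both 3 h libraries. Of those called down 61 had so few in both 10 h libraries. The folds of these genes are fitted values and not measured. The 3 h and 10 h libraries did not overlap in RPKM for 3930 of the 3932 called genes. Over all tested genes both 10 h libraries lay above both 3 h libraries in 40.8% and below in 37.6%, so absence of overlap alone is common in this comparison. With no fold threshold, 32.1% of genes were higher and 30.2% lower at 10 h, 62.3% in all.

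What the genes weigh in the libraries differed more than how many moved. Genes called down held 34.1% and 32.1% of the tested counts in 3 h replicates 1 and 2, and 14.8% and 15.0% in the 10 h replicates. Genes called up held 3.57% and 4.31% at 3 h and 11.6% and 10.9% at 10 h. Both sets were chosen by their change, so the direction in which their shares moved is built in. The 100 most abundant genes took 22.9% and 21.8% of counts at 3 h and 18.8% and 19.0% at 10 h. The most abundant gene was Cd74, the invariant chain of antigen presentation, in both 3 h libraries and Eef1a1, a translation elongation factor, in both 10 h libraries.

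The comparison was also sensitive to scaling, and whether this comes from the unequal weight was not tested. TMM raised the effective size of the 10 h libraries, with factors of 1.12 and 1.12, and lowered that of the 3 h libraries, with 0.865 and 0.915. Without these factors, on library size alone, 3432 genes were called up and 1004 down, so the share of calls that were rises was 77.4% in place of 56.5%. The median log2 fold change of all tested genes was then 0.35, a shift of 0.33, and with upper quartile scaling it was 0.15, a shift of 0.13. With RLE factors it was -0.03, with 1999 genes called up and 1976 down. The 15 tested reference genes, commonly held to be steady, had a median of -0.03 with TMM and 0.29 on library size alone. Of these 4 were called up and none down, with Gusb, a lysosomal glucuronidase, at 7.17 and 10.5 RPKM at 3 h and 35.0 and 32.4 at 10 h, so they do not settle the scale. The data hold no spike-in, and in bulk libraries fewer cells of a kind and less RNA per cell cannot be told apart.

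**Figure D1:**
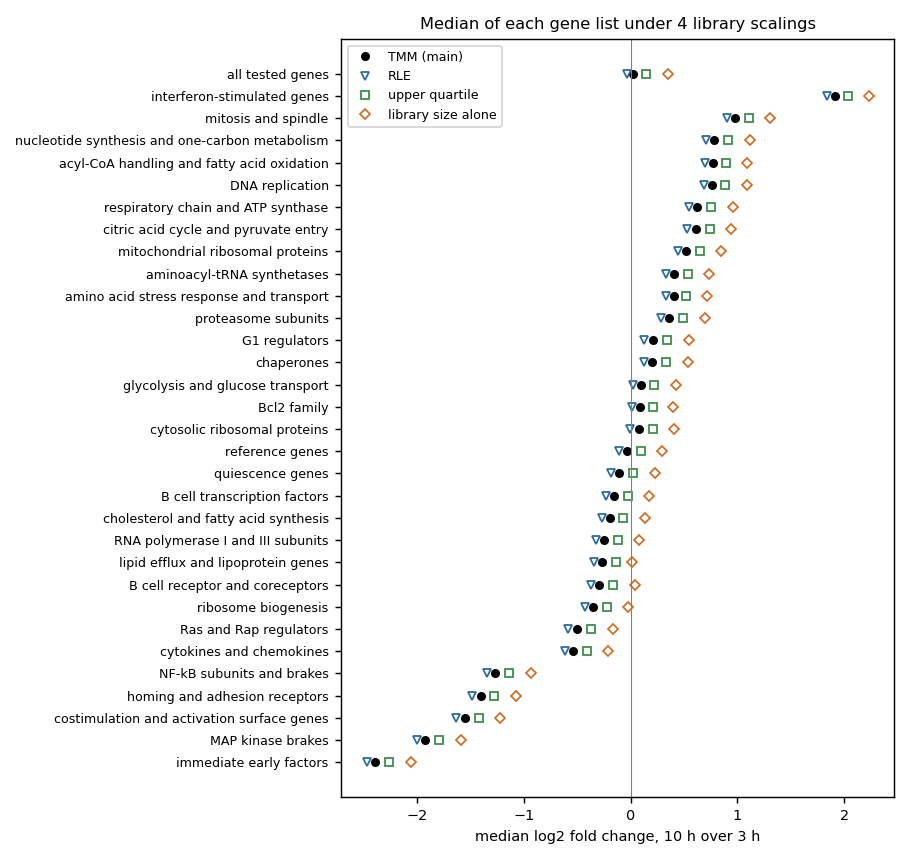
Median log2 fold change of each gene list from 3 h to 10 h under TMM, RLE, upper quartile and library size scaling, with all tested genes for reference. The lists keep nearly the same order, while library size alone moves each by about 0.33 to the right, which takes several of those a little below 0 across it.

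The replicates bear on precision. The SD of the log2 ratio between replicates was 0.529 at 3 h and 0.346 at 10 h, the leading log2 fold change was 1.75 between the 3 h replicates and 1.26 between the 10 h replicates, and it ran from 3.17 to 3.58 between stages. The 3 h replicates differed by function. Replicate 1 lay above replicate 2 in 24 of 26 immediate early genes and 16 of 17 MAP kinase brakes, but in none of 20 aminoacyl-tRNA synthetases and only 3 of 34 cholesterol and fatty acid synthesis genes, whose median log2 ratio was -0.64, and 6 of 32 interferon-stimulated genes (-0.47). Over all tested genes it lay above in 6167 of 12750. At 10 h, replicate 1 lay above replicate 2 in 31 of 32 interferon-stimulated genes, with a median log2 ratio of 1.09. It was also higher, by less, in 43 of 46 DNA replication genes (median 0.26), 65 of 73 respiratory chain genes (0.09), 40 of 47 nucleotide and one-carbon genes (0.09) and 39 of 44 mitosis genes (0.17), against 6554 of all 12750 tested genes. Numbers I and II are not stated to join the same mice across stages; a replicate block called 2208 genes up and 1695 down, and a replicate block with the 10 h numbers crossed called 2216 and 1725.

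**Figure D2:**
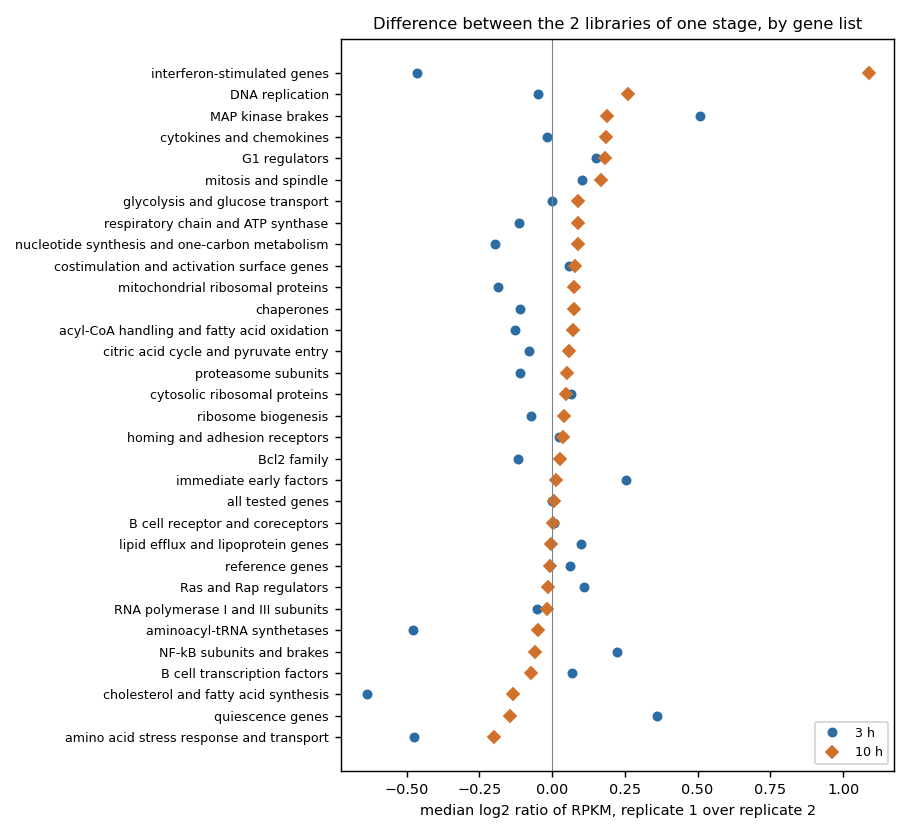
Median log2 ratio of RPKM in replicate 1 over replicate 2 for each gene list, at 3 h (circles) and at 10 h (diamonds). At 3 h MAP kinase brakes lie furthest to the right and cholesterol and fatty acid synthesis furthest to the left with -0.64, and at 10 h interferon-stimulated genes stand apart at 1.09.

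The libraries were checked against cell type markers. The 11 B cell markers summed to 10380 and 9495 RPKM at 3 h and 7954 and 8432 at 10 h, led by Ighm, the IgM heavy chain, at 4425 and 3591 and then 4005 and 4234. Ighm did not change (log2 fold change 0.04 ± 0.13, adjusted p 1), and its stages overlapped. Of the 11 B cell markers 4 were called down (36.4%, against 13.4% of all tested genes) and 1 up (9.09%, against 17.4%). Their median log2 fold change was -0.25, and their sum was lower in both 10 h libraries. Of 12 T cell markers Cd3e, Cd3g, Cd4 and Thy1 were at 0 in all 4 libraries, and the sum was 12.8 and 16.3 RPKM at 3 h and 13.1 and 11.1 at 10 h, nearly all from Lck, a kinase that some B cells also express. The 12 macrophage markers summed to 3.88 and 4.70 and then 4.67 and 3.97, led by Cd68, with C1qa, C1qb, C1qc and Fcgr1 at 0. Cd68 went from 2.99 and 2.90 to 1.84 and 1.68, so the rest of the sum was higher in both 10 h libraries. None of the 12 passed the test. The 8 neutrophil markers summed to 0.0138 and 0 and then 0.159 and 0.131, from Csf3r at 3 h and led by Ly6g at 10 h, with 6 of them at 0. The naive libraries by contrast held neutrophil sums of 262 and 97.8 and erythroid sums of 454 and 352, so naive levels below are from libraries that carried some other blood cells.

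Of the other marker lists, the NK, dendritic and plasma cell sums were lower in both 10 h libraries and the stromal sum higher, while the erythroid and platelet sums overlapped between stages. The 7 NK cell markers summed to 2.54 and 3.07 RPKM at 3 h and 0.595 and 0.541 at 10 h, nearly all from Prf1, the pore-forming protein perforin, with Ncr1, Gzma and Gzmb at 0. The 7 dendritic cell markers summed to 30.9 and 20.4 and then 8.53 and 8.64, led by Zbtb46 at 3 h and by Flt3, a cytokine receptor, at 10 h. Zbtb46, a transcription factor of classical dendritic cells, stood at 0.124 and 0.0814 in naive libraries, 28.1 and 17.2 at 3 h and 1.18 and 1.43 at 10 h. Flt3 went the other way, from 2.42 and 3.01 to 6.96 and 6.85, and Clec9a was at 0, so the drop of the sum was that of Zbtb46. The 7 erythroid markers summed to 0.920 and 1.79 and then 5.72 and 1.54, led by Hbb-b1, a globin gene with near-identical copies. The 5 platelet markers summed to 0.323 and 0.0596 and then 0.0121 and 0.0706, led by Gp9 at 3 h, which was at 0 at 10 h. The 7 stromal markers summed to 22.8 and 27.4 and then 28.5 and 32.2, nearly all from Pecam1, which B cells also express. The 6 plasma cell markers summed to 767 and 606 and then 228 and 208, led by Irf4. No erythroid, platelet or stromal marker passed the test. Hbb-b1, with a log2 fold change of 1.37, gained a call with upper quartile scaling (1.49) and on library size alone (1.69). The part of the sums that differed in the changes below was not tested.

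Nr4a1, Rasa3 and Acot7 mark the comparison. Nr4a1 (gene 15370, chromosome 15), an orphan nuclear receptor of the immediate early response, stood at 11.5 and 10.8 RPKM in naive cells, then 495 and 308 at 3 h, and 10.6 and 12.1 at 10 h. Both 3 h libraries lay far above the naive, 10 h and 33 h libraries, and the 10 h libraries were back at the naive level. Its log2 fold change from 3 h to 10 h was -5.15 ± 0.32 (adjusted p 1.08e-06), the largest fall among the genes ranked for size of change. Rasa3 (gene 19414, chromosome 8), a GTPase-activating protein that turns off Ras and Rap1, stood at 145 and 137 RPKM in naive cells, then 149 and 148 at 3 h, and 7.27 and 6.80 at 10 h. It was near its naive level at 3 h, then fell by 4.40 ± 0.15 on the log2 scale (adjusted p 3.18e-09), and at 33 h stood at 31.8 and 21.6. Acot7 (gene 70025, chromosome 4), a thioesterase that splits long-chain acyl-CoA, stood at 6.56 and 5.96 RPKM in naive cells, then 4.20 and 3.95 at 3 h, and 51.5 and 43.2 at 10 h. Its 10 h libraries lay above every naive and 3 h library, with a log2 fold change of 3.54 ± 0.13 (adjusted p 3.18e-09).

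Among genes above a mean log2 CPM of 5, the 8 largest falls were Nr4a1, Apoe, Rasa3, Pde2a, Rasgef1b, Itgb7, Gsn and Il4i1. They differ in where they stood before LPS. Pde2a, a phosphodiesterase of cAMP and cGMP, went from 60.2 and 55.4 RPKM to 3.55 and 3.60 (log2 fold change -4.02 ± 0.18), and Rasgef1b, a guanine nucleotide exchange factor, from 94.3 and 66.4 to 5.02 and 5.07 (-3.99 ± 0.18). Both were well expressed in naive cells, at 36.7 and 34.4 RPKM for Pde2a and 48.1 and 45.0 for Rasgef1b. Il4i1, a secreted amino acid oxidase, rose from 7.04 and 6.88 in naive cells to 87.8 and 73.8 at 3 h and was at 6.19 and 6.48 at 10 h. Gsn, the actin-severing protein gelsolin, was already lower at 3 h than in naive cells, at 71.5 and 67.4 RPKM naive, then 16.4 and 16.6 at 3 h and 1.23 and 1.03 at 10 h, and it stood at 10.8 and 7.87 at 33 h. The ranking took only called genes whose 3 h and 10 h libraries did not overlap. That both 10 h libraries lay below both 3 h libraries in all 8 genes was thus set by the rule.

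Among the largest rises by the same rule were Gtse1, Acot7, Bcat1, Tmem154, Septin9, Phf11b and Mef2b. Mef2b, a transcription factor of germinal centre B cells, went from 3.74 and 4.06 RPKM to 37.8 and 29.4 (3.10 ± 0.19). Bcat1, the cytosolic branched-chain aminotransferase, went from 0.275 and 0.612 to 4.68 and 4.99 (3.37 ± 0.28). Both were above their naive levels at 10 h. Tmem154, a membrane protein, Septin9, a cytoskeletal GTPase, and Phf11b, a PHD finger protein, behaved otherwise. Septin9 stood at 23.6 and 21.4 RPKM in naive cells, then 0.719 and 0.462 at 3 h and 6.08 and 4.84 at 10 h. Tmem154 stood at 16.7 and 17.9, then 0.500 and 0.943, then 8.47 and 7.10. These rises followed a loss at 3 h and at 10 h were still below the naive level, while Phf11b, at 44.7 and 44.9, then 4.12 and 5.28, then 60.1 and 29.9, straddled it.

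**Figure D3:**
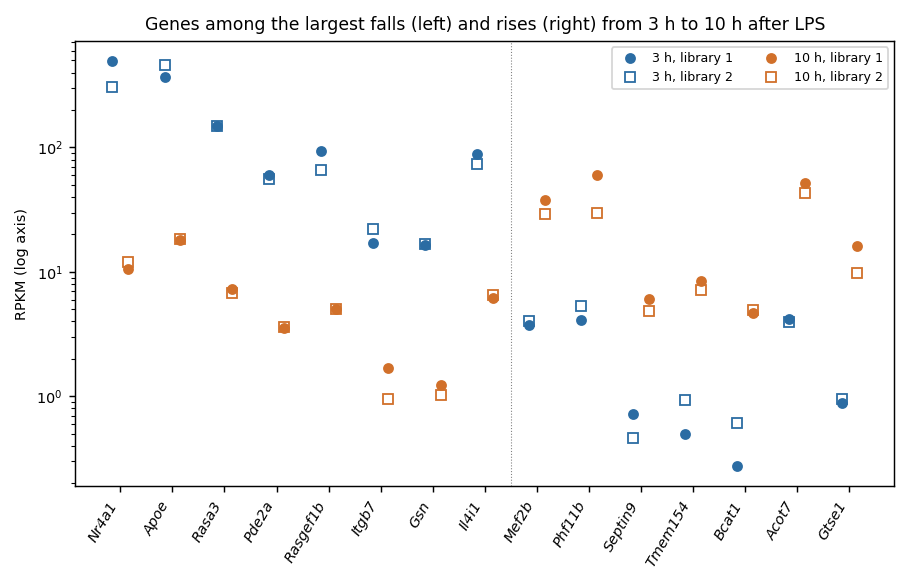
RPKM on a log axis in each 3 h and 10 h library of the 8 genes with the largest falls and of 7 genes among the largest rises. In every gene shown the stages do not overlap, which the rule that picked the genes required.

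**Figure D4:**
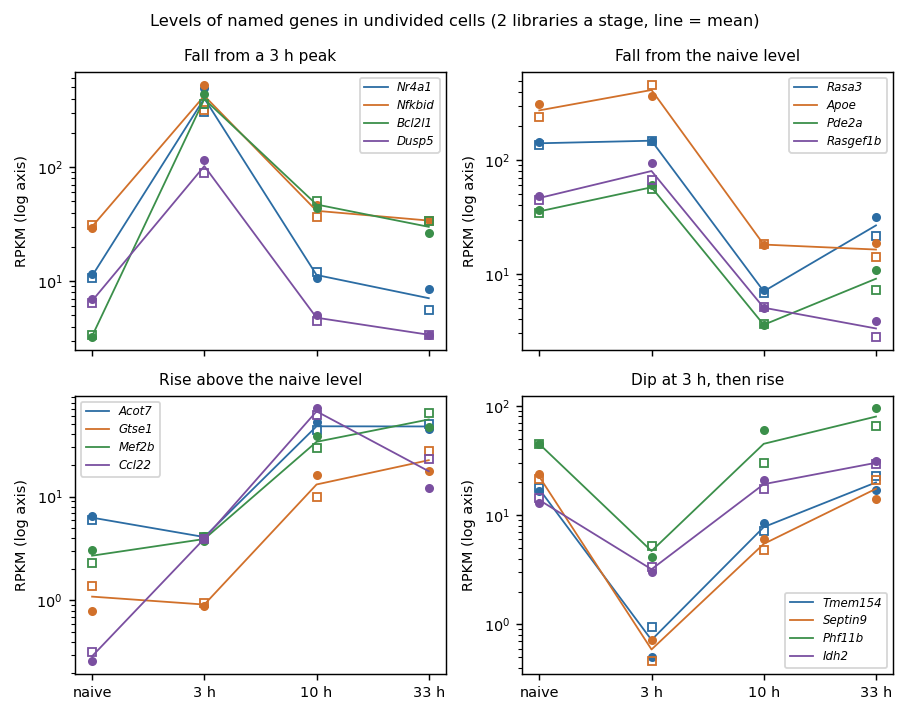
RPKM on a log axis in the naive, 3 h, 10 h and 33 h libraries of 16 genes grouped by the course of their levels, with filled circles for replicate 1, open squares for replicate 2 and lines through the means. Nr4a1 and its panel peak at 3 h, Rasa3 and its panel are no lower at 3 h than in naive cells and fall by 10 h, Acot7 and its panel rise above the naive level, and the last panel dips at 3 h before rising.

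In the lists that follow, the counts of rises and falls are to be read against 17.4% of all tested genes called up and 13.4% called down, and the medians against 0.02. Counts under other settings have their own references. With no fold threshold 32.1% of all tested genes were higher and 30.2% lower. Of 12750 tested genes, library size alone gave 3432 higher and 1004 lower, upper quartile scaling 2630 and 1386, and DESeq2 1396 and 1410. The immediate early genes were the group with the deepest median fall. Of 26 tested, 22 were lower at 10 h and 1 was higher, with a median log2 fold change of -2.40. All 3 NR4A receptors and 9 of 10 AP-1 genes fell. Nr4a3 went from 80.5 and 44.4 RPKM at 3 h to 1.43 and 1.57 at 10 h (-5.37 ± 0.26), against 0.659 and 0.844 in naive cells. The gene that rose was Atf3, a stress-induced factor of the ATF family, from 2.06 and 2.69 to 9.41 and 6.63 (1.74 ± 0.19). Atf3 was thus the only AP-1 gene on the list that went on climbing after 3 h.

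NF-kB genes fell together with their inhibitors. Of 23 tested genes, 16 were lower and 1 higher, with a median of -1.27, and the falls included all 5 subunits and 5 of 6 IkB genes. Nfkbid, a nuclear IkB protein, went from 530 and 315 RPKM at 3 h to 46.1 and 36.7 at 10 h (-3.35 ± 0.24), with 29.1 and 31.1 in naive cells. Tnfaip3, the ubiquitin-editing brake A20, went from 235 and 162 to 30.5 and 32.7 (-2.65 ± 0.20), still above its naive 10.3 and 9.75. The rise was Tnip3, at 0 and 0.0610 RPKM at 3 h and 0.248 and 0.140 at 10 h, a call that was lost without 3 h replicate 1 (log2 fold change 1.69), without 10 h replicate 1 (1.87), with the 4 libraries alone (2.36) and with DESeq2 (2.34).

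Promoters of these genes were searched for the kappa B motif, the binding pattern of NF-kB, on both strands of the window from 250 bases before to 50 bases after the start. The motif was found in 12 of 20 NF-kB genes with a promoter (60%) and 7 of 19 immediate early genes (36.8%), but also in 6 of 23 interferon-stimulated genes (26.1%), a list with 22 rises and no fall, against 12.3% of the 9919 tested genes with a promoter and 10.4% of their 12567 promoters. It was in 15.7% of genes lower at 10 h and 10.1% of genes higher. The promoters below belong to the called members with the largest changes that hold a match, and capitals mark the matches, which describe letters and not bound sites. RefSeq lists 3 promoters for Maff, 3 for Nfkbid and 2 for Tnfaip3, of which 1 each is shown. Those of Nr4a1 at chr15:101266596-101266895, Maff at chr15:79348152-79348451 and Nfkbid at chr7:30422156-30422455 read on the plus strand and that of Tnfaip3 at chr10:19015361-19015660 on the minus strand of GRCm38.p6.
Nr4a1: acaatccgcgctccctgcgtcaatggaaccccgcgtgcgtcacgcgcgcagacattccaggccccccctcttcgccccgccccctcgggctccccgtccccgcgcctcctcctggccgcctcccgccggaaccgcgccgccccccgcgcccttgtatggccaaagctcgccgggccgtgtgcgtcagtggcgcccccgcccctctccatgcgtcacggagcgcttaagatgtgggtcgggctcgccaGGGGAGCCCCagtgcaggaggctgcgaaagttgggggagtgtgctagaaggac
Maff: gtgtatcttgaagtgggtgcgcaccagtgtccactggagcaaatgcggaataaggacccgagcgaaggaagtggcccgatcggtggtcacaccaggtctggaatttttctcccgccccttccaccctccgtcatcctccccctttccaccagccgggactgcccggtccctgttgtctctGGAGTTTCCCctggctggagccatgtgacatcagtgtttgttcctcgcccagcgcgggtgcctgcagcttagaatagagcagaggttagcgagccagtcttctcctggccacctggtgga
Nfkbid: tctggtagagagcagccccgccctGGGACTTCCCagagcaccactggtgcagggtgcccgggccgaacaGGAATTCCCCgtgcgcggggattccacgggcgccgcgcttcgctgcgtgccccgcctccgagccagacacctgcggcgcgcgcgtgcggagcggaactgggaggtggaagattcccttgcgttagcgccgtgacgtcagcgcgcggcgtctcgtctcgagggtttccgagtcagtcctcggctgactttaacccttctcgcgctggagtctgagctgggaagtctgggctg
Tnfaip3: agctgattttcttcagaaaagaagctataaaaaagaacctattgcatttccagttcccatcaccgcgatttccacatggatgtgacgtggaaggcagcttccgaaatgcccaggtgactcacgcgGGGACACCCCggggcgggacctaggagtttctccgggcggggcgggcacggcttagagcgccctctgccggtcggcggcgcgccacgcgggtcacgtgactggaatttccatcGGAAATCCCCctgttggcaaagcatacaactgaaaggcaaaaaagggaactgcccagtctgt
Nfkbid and Tnfaip3 each hold 2 matches. Maff, a small Maf factor on the immediate early list, fell by 4.29 on the log2 scale.

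MAP kinase brakes fell as well. Of 17 tested, 12 were lower and none higher, with a median of -1.93. Dusp5, a nuclear phosphatase of ERK, went from 115 and 89.2 RPKM at 3 h to 5.09 and 4.46 at 10 h (-4.41 ± 0.26), close to its naive 6.96 and 6.48. Spred2, which holds back Raf activation, went from 3.82 and 2.77 to 0.239 and 0.157 (-4.01 ± 0.23). Unlike Dusp5, Spred2 was at its naive level at 3 h (3.78 and 3.43) and stood at 2.89 and 3.12 again at 33 h, so its low point among these stages was 10 h.

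Of 36 tested Ras and Rap regulators 5 were higher (13.9%, under the 17.4% of all tested genes) and 14 lower (38.9%, against 13.4%), with a median of -0.51. Of the 15 GTPase-activating proteins 7 fell and 1 rose. After Rasa3 the deepest fall on this list was Sipa1l1, a Rap GTPase-activating protein, from 38.8 and 32.7 RPKM to 6.52 and 6.88 (-2.42 ± 0.12). Rasgef1b, named above with a deeper fall, was not on the list. Rasgrp3, an exchange factor that carries B cell receptor signals to Ras, rose from 23.0 and 24.9 to 79.2 and 81.0 (1.74 ± 0.08), above its naive 61.0 and 56.2. Rapgef3, a cAMP-gated Rap exchange factor, rose from 0.102 and 0.0942 to 0.379 and 0.269 (1.75 ± 0.30), a low level. The number of falls was 9 on library size alone.

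B cell receptor and coreceptor genes had 6 rises and 10 falls among 33, with a median of -0.29 that turned to 0.04 on library size alone, where 6 genes fell. Fcgr2b, the inhibitory Fc receptor, went from 20.7 and 25.5 RPKM to 79.0 and 70.2 (1.69 ± 0.11), above its naive 54.7 and 53.2. Cd5, an inhibitory coreceptor, fell from 2.13 and 2.25 to 0.261 and 0.205 (-3.21 ± 0.23), and Lilrb4a, an inhibitory receptor, from 5.14 and 11.2 to 1.26 and 1.14 (-2.79 ± 0.31). Of the 10 inhibitory members 2 rose (20%, near the 17.4% of all tested genes) and 4 fell (40%, against 13.4%).

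Of the homing and adhesion receptors 12 of 16 fell and 1 rose, with a median of -1.41. Gpr183, the oxysterol receptor that guides B cells within follicles, went from 166 and 156 RPKM at 3 h to 13.3 and 13.3 at 10 h (-3.60 ± 0.15), after 60.4 and 59.1 in naive cells. Itgb7, the beta chain of the gut-homing integrin, stood at 148 and 155 in naive cells, then 17.1 and 22.2 at 3 h and 1.69 and 0.959 at 10 h (-3.87 ± 0.29). It was back at 17.7 and 10.2 at 33 h. The rise was Itgal, the alpha chain of LFA-1, from 47.9 and 64.3 to 101 and 97.2 (0.82 ± 0.11, adjusted p 0.0276). That call was lost with RLE scaling (0.74), DESeq2 (0.74), the 4 libraries alone (0.81), without 3 h replicate 1 (0.62) and without 10 h replicate 1 (0.79).

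Costimulatory and activation surface genes followed, with 15 of 24 lower, 3 higher and a median of -1.56. Cd83, an activation marker that stabilises MHC class II at the surface, went from 1885 and 1579 RPKM to 227 and 221 (-2.95 ± 0.15). Cd69, the gate marker, went from 270 and 264 to 30.4 and 33.3 (-3.07 ± 0.19), against 35.2 and 32.6 in naive cells. The sorted cells were thus CD69+ by protein at a stage when Cd69 RNA was at the naive level. Tnfrsf13b, the receptor TACI for the survival factors BAFF and APRIL, rose from 60.8 and 79.6 to 389 and 397 (2.48 ± 0.12), above its naive 196 and 171. Cd80, a ligand of CD28, rose from 1.25 and 1.72 to 6.81 and 4.49 (1.90 ± 0.28).

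Of 16 tested cytokine and chemokine genes 3 were higher at 10 h (18.8%, near the 17.4% of all tested genes) and 7 lower (43.8%, against 13.4%), with a median of -0.54. Ccl4 and Ccl3, chemokines of the early response, went from 35.3 and 38.6 RPKM to 2.83 and 2.16 (-3.88 ± 0.27) and from 24.9 and 23.8 to 3.76 and 3.25 (-2.79 ± 0.29). Ccl22, a chemokine that attracts regulatory T cells, went from 4.00 and 3.86 to 70.4 and 61.4 (4.07 ± 0.27), well above its naive 0.261 and 0.321, and was at 12.2 and 22.8 at 33 h. Ccl5 went from 0.419 and 0 to 18.1 and 11.9 (6.52 ± 0.59), a fold that rests on very few 3 h counts, and its naive level was 8.55 and 5.47. With at least 10 counts required in every library, 2 falls were left on the list.

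Of 32 tested interferon-stimulated genes 22 were higher at 10 h and none lower, with a median of 1.91, and all 32 had a positive fitted log2 fold change. Of these 1 had 3 counts or fewer in both 3 h libraries and so no measured fold. With it bounded the median was 1.73. Herc6, an interferon-induced ubiquitin ligase, stood at 5.43 and 4.82 RPKM in naive cells, then 0.454 and 0.541 at 3 h and 5.88 and 3.59 at 10 h (3.23 ± 0.22). Xaf1, an interferon-induced gene of cell death, stood at 6.54 and 5.51, then 0.343 and 0.556, then 7.85 and 3.26 (3.57 ± 0.44). In both genes 10 h replicate 1 was above the naive libraries and 10 h replicate 2 below them, so these levels had returned to the naive range after a loss at 3 h. The count depended on the library left out: it was 13 without 3 h replicate 1 and 30 without 10 h replicate 2.

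The interferon response element, searched as GAAA and GAAA with any 2 bases between them on both strands of the same promoter window, was found in 13 of 23 interferon-stimulated genes (56.5%), against 3.91% of tested genes and 3.23% of promoters. It was in 5.91% of genes higher at 10 h and 3.01% of genes lower. The elements of Oas3, an oligoadenylate synthetase with paralogues in the same cluster, at chr5:120777610-120777909 and Trim30a at chr7:104465144-104465443, the first of 2 promoters listed for it, are shown as the called members with the largest rises that hold a match. Both read on the minus strand, and their genes had log2 fold changes of 3.09 and 2.48.
Oas3: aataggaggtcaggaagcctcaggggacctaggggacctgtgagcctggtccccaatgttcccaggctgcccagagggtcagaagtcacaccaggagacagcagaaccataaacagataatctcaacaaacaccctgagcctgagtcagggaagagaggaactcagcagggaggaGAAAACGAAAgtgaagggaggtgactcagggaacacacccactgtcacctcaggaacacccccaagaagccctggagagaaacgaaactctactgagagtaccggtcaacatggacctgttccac
Trim30a: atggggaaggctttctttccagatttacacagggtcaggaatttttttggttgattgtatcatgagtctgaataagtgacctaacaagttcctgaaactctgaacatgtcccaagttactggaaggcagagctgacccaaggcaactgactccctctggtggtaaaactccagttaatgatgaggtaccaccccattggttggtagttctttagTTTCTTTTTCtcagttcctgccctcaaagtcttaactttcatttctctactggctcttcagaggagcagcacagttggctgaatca

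In the Bcl2 family 5 of 16 tested genes rose and 5 fell, with a median of 0.08. All 5 falls were among the 7 survival members, and 3 of these were Bcl2a1a, Bcl2a1b and Bcl2a1d, near-identical copies that share reads and are uncertain for that reason. Rises were seen in 2 of the 7 survival members and 3 of the 9 tested death members. Bcl2l1, which encodes the survival protein Bcl-xL, went from 3.21 and 3.37 RPKM in naive cells to 435 and 356 at 3 h and 43.5 and 50.6 at 10 h (-3.07 ± 0.17). Bcl2a1b, a survival gene, went from 859 and 1051 at 3 h to 256 and 258 (-1.89 ± 0.14). Bax, the pore-forming death effector, rose from 80.7 and 84.0 to 251 and 223 (1.53 ± 0.11) and was at 91.8 and 112 at 33 h. The survival members that rose were Bcl2l2, the gene of Bcl-w, from 0.451 and 0.693 to 2.75 and 2.74 (2.21 ± 0.20), and Bcl2 itself, from 2.93 and 4.35 to 9.38 and 9.41 (1.36 ± 0.16).

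Of 25 B cell transcription factors 1 rose (4.00%, against 17.4% of all tested genes) and 7 fell (28.0%, against 13.4%), with a median of -0.16 that turned to 0.17 on library size alone. Irf4, a factor of both activation and plasma cell fate, went from 709 and 519 RPKM to 128 and 136 (-2.22 ± 0.17), against 54.1 and 52.3 in naive cells. Spib, an ETS factor of B cell identity, went from 625 and 532 to 216 and 206 (-1.45 ± 0.13). The rise was Prdm1, the plasma cell factor Blimp-1, from 1.40 and 1.66 to 4.32 and 5.40 (1.65 ± 0.25), and the call was lost without 3 h replicate 1 (1.55). The drop of the plasma cell marker sum therefore came with a rise of 1 of its members.

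Quiescence genes had 2 rises and 7 falls among 28, and the median of -0.11 turned to 0.02 with upper quartile scaling and 0.23 on library size alone, where 3 genes fell. The number of falls was also 3 without 3 h replicate 1, and 4 without 10 h replicate 1. Zfp36l1, an RNA-binding protein that promotes mRNA decay, went from 139 and 141 RPKM in naive cells to 572 and 451 at 3 h and 86.8 and 103 at 10 h (-2.43 ± 0.19). Btg1, an antiproliferative gene, went from 261 and 227 to 45.1 and 49.7 (-2.36 ± 0.13), well under its naive 182 and 176. Hhex, a homeobox factor, stood at 106 and 115 in naive cells, then 4.28 and 2.97 at 3 h and 10.7 and 11.7 at 10 h (1.66 ± 0.18), so it rose while staying far below the naive level. Rbl2, the pocket protein p130, rose from 7.81 and 5.38 to 13.0 and 13.2 (adjusted p 0.00878), a call lost without 3 h replicate 2 (0.76) and with DESeq2 (0.92).

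Lipid efflux and lipoprotein genes had 4 falls and no rise among 14, with a median of -0.26 that turned to 0.02 on library size alone. Apoe, the lipid carrier apolipoprotein E, stood at 310 and 239 RPKM in naive cells, then 367 and 463 at 3 h and 18.0 and 18.3 at 10 h (-4.52 ± 0.24). Pltp, the phospholipid transfer protein, fell from 1.82 and 2.53 to 0.219 and 0.146 (-3.56 ± 0.28). Apoe stayed low at 33 h (18.7 and 14.1), while Pltp stood at 3.16 and 2.40.

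**Figure D5:**
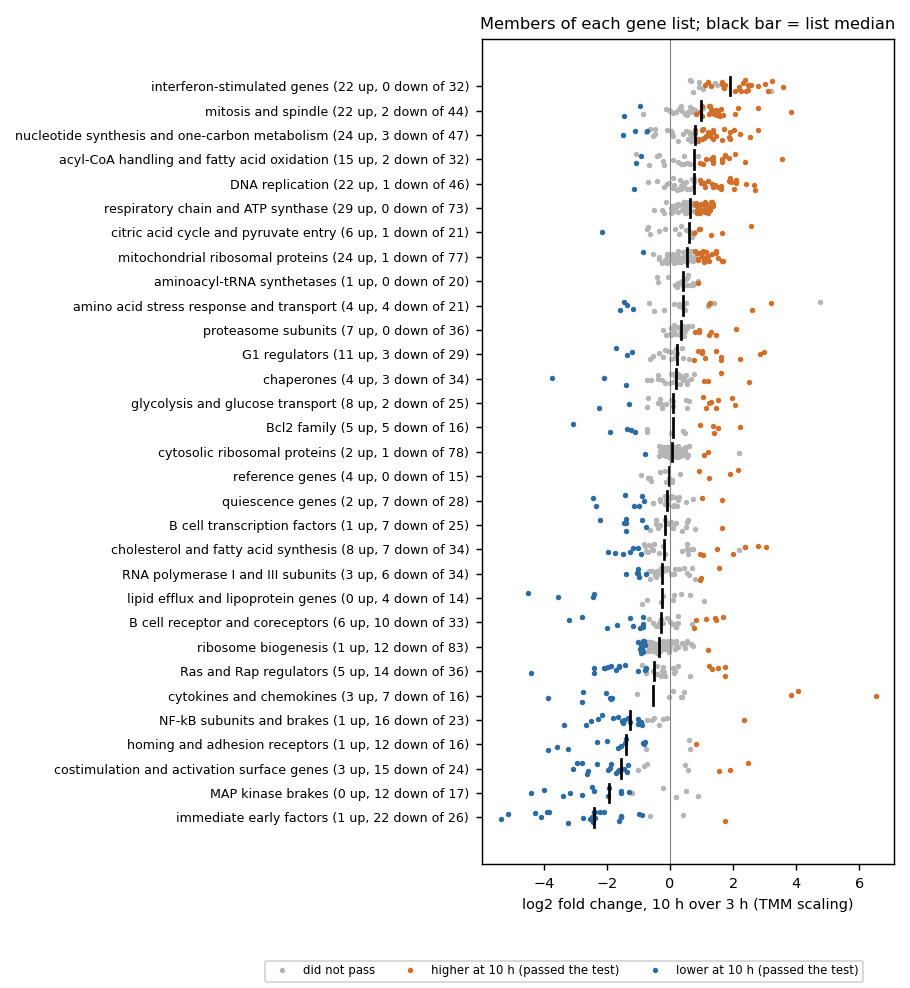
Log2 fold change from 3 h to 10 h of each tested member of the gene lists under TMM scaling, with the list median as a black bar and colour for genes that passed the test. Interferon-stimulated genes lie furthest to the right with a median of 1.91 and immediate early genes furthest to the left with -2.40.

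Of 83 ribosome biogenesis genes 12 fell and 1 rose, with a median of -0.35. The share of falls, 14.5%, was near the 13.4% of all tested genes, while that of rises, 1.20%, was under the 17.4%. The number of falls was 7 with upper quartile scaling and 0 on library size alone, with a median of -0.02. With no fold threshold 51 of the 83 were lower, against 30.2% of all tested genes. Gnl2, a GTPase of large subunit assembly, stood at 30.4 and 32.5 RPKM in naive cells, then 149 and 157 at 3 h and 77.5 and 75.3 at 10 h (adjusted p 0.000188). Nolc1, a nucleolar chaperone of small ribonucleoproteins, stood at 40.1 and 39.1, then 273 and 251, then 131 and 138 (-0.96 ± 0.10). Both kept more than their naive level at 10 h, and both calls were lost on library size alone, at -0.67 and -0.63. The rise was Nop10, a part of H/ACA particles, from 59.4 and 57.0 to 149 and 118 (1.20 ± 0.15).

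Subunits and factors of RNA polymerases I and III had 3 rises and 6 falls among 34, with a median of -0.25 that turned to 0.08 on library size alone, where 1 gene fell. All 4 calls among the 14 polymerase I genes were falls, among them Cd3eap, a polymerase I subunit, from 52.2 and 56.9 RPKM to 27.4 and 25.2 (-1.05 ± 0.12), a call lost on library size alone (-0.72). Of the 20 polymerase III genes 3 rose (15.0%) and 2 fell (10.0%), shares no larger than the 17.4% and 13.4% of all tested genes. Gtf3c4 of TFIIIC fell from 34.5 and 25.8 to 11.2 and 11.8 (-1.39 ± 0.12), while Gtf3a, the 5S rRNA gene factor TFIIIA, rose from 8.08 and 13.0 to 31.5 and 30.7 (1.54 ± 0.16). Gtf3c3 rose from 3.17 and 3.18 to 6.23 and 6.39 (0.99 ± 0.13), a call lost with DESeq2 (0.91).

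Of 78 cytosolic ribosomal protein genes 2 rose and 1 fell, smaller shares than the 17.4% and 13.4% of all tested genes. Their median of 0.07 turned to -0.002067 with RLE scaling and was 0.20 with upper quartile scaling and 0.41 on library size alone. Ribosomal protein genes took 3.03% and 3.04% of counts at 3 h and 4.03% and 4.01% at 10 h. Rps2 rose from 846 and 856 RPKM to 1799 and 1754 (1.06 ± 0.08), and Rps27l, a paralogue of Rps27, from 128 and 153 to 357 and 289 (1.20 ± 0.14). Rps27 itself went from 64.8 and 64.4 to 38.2 and 36.0 (-0.80 ± 0.13, adjusted p 0.0499), a call at the threshold that 15 of the 18 other settings run for this gene ended, with values from -0.47 on library size alone to -0.88 with DESeq2. Ribosomal protein genes have many pseudogene copies, so their counts are uncertain.

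Mitochondrial ribosomal proteins rose in 24 of 77 and fell in 1, with a median of 0.52. Mrpl42 went from 32.0 and 41.5 RPKM to 119 and 120 (1.69 ± 0.12) and Mrps28 from 21.2 and 24.9 to 76.6 and 68.2 (1.65 ± 0.12). Mrpl50 was the exception, from 41.4 and 42.5 to 23.2 and 23.5 (-0.85 ± 0.09), a call lost with upper quartile scaling (-0.72) and on library size alone (-0.52). On library size alone 42 genes of the list rose, against 3432 of all 12750 tested genes. With no fold threshold 52 rose, against 32.1% of all tested genes.

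Respiratory chain and ATP synthase genes rose in 29 of 73 with no fall, at a median of 0.62, and 19 of the 35 tested complex I genes were among them. Ndufa13 of complex I stood at 67.5 and 65.9 RPKM in naive cells, then 26.6 and 33.6 at 3 h and 78.7 and 76.7 at 10 h (1.36 ± 0.11). Uqcrq of complex III went from 80.6 and 84.0 to 222 and 205 (1.37 ± 0.10), above its naive 71.3 and 71.5. The number of rises was 17 with DESeq2 and 55 on library size alone. None of these genes is encoded in mitochondrial DNA, whose transcripts were left out of the test.

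Citric acid cycle and pyruvate entry genes rose in 6 of 21 and fell in 1, with a median of 0.61, and the rises numbered 3 with DESeq2 and 12 on library size alone. Idh2, the mitochondrial NADP-dependent isocitrate dehydrogenase, stood at 13.0 and 14.5 RPKM in naive cells, then 3.04 and 3.36 at 3 h and 21.0 and 17.4 at 10 h (2.58 ± 0.13). Suclg2, a subunit of succinyl-CoA synthetase, rose from 5.97 and 9.09 to 24.5 and 22.8 (1.64 ± 0.15). Pdp1, the phosphatase that activates pyruvate dehydrogenase, fell from 10.4 and 9.40 to 2.01 and 2.38 (-2.17 ± 0.15).

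Of 25 tested genes of glycolysis and glucose transport 8 rose and 2 fell, with a median of 0.09. The rises were 8 of 20 enzymes and the falls 2 of 5 transporters, and the others did not pass. Aldoc, an aldolase, rose from 1.11 and 1.18 RPKM to 5.30 and 4.37 (2.07 ± 0.23) and Pfkm, a phosphofructokinase, from 0.420 and 0.398 to 1.73 and 1.45 (1.96 ± 0.20). Naive cells had more Aldoc, at 7.58 and 8.77, and about as much Pfkm, at 1.75 and 1.49. Slc2a6, a hexose transporter, stood at 6.72 and 5.94 in naive cells, then 60.9 and 99.5 at 3 h and 17.4 and 16.0 at 10 h (-2.27 ± 0.19). Slc16a1, the lactate carrier MCT1, fell from 49.6 and 38.3 to 18.9 and 17.0 (-1.29 ± 0.14).

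Nucleotide synthesis and one-carbon genes rose in 24 of 47 and fell in 3, with a median of 0.78. The rises included 8 of 9 deoxynucleotide genes and 5 of 6 pentose phosphate genes. Tyms, thymidylate synthase, went from 0.278 and 0.310 RPKM to 2.37 and 1.78 (2.80 ± 0.21) and reached 20.3 and 24.7 at 33 h. Psph, the last enzyme of serine synthesis, went from 3.12 and 3.91 to 20.9 and 20.2 (2.53 ± 0.15). Mat2a, which makes S-adenosylmethionine, fell from 293 and 361 to 121 and 111 (-1.50 ± 0.11). Tk1, thymidine kinase, fell from 8.27 and 7.82 to 4.34 and 2.97 (-1.12 ± 0.18) before 48.8 and 56.8 at 33 h, and its call was lost on library size alone (-0.79) and without 10 h replicate 2 (-0.88).

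Genes of acyl-CoA handling and fatty acid oxidation rose in 15 of 32 and fell in 2, with a median of 0.77. Besides Acot7, 5 of the other 8 tested thioesterases rose. Acot13, a mitochondrial thioesterase, stood at 24.3 and 22.2 RPKM in naive cells, then 5.04 and 5.60 at 3 h and 29.1 and 26.6 at 10 h (2.38 ± 0.14). Cpt1a, which carries fatty acids into mitochondria, stood at 62.8 and 55.5, then 5.99 and 3.70, then 2.63 and 2.47 (-0.91 ± 0.17). The Cpt1a call was lost under 7 settings, among them upper quartile scaling (-0.77), library size alone (-0.57) and without 3 h replicate 1 (-0.54). Acsl1, an acyl-CoA synthetase, fell from 6.78 and 5.14 to 2.67 and 2.96 (-1.08 ± 0.14), a call lost on library size alone (-0.74).

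Cholesterol and fatty acid synthesis had 8 rises and 7 falls among 34, with a median of -0.19 that turned to 0.13 on library size alone. The 2 parts of the list differed. Of 21 cholesterol genes 4 rose and 5 fell, with a median of -0.495, and -0.17 on library size alone. Of 13 fatty acid genes 4 rose and 2 fell, with a median of 0.66, and 0.98 on library size alone. With 1 fatty acid gene at the floor bounded, that part's median was 0.56. Elovl6, a fatty acid elongase, rose from 0.187 and 0.237 RPKM to 1.66 and 1.93 (3.04 ± 0.17), and Mvk, mevalonate kinase, from 2.22 and 4.53 to 23.0 and 25.3 (2.78 ± 0.21). Scd1, the stearoyl-CoA desaturase, fell from 634 and 530 to 147 and 148 (-1.98 ± 0.11), and Insig1, which holds back sterol synthesis, from 82.3 and 86.0 to 23.2 and 27.3 (-1.74 ± 0.11). Without 3 h replicate 2, the higher of the 3 h pair on this list, the number of rises was 14.

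Of 20 aminoacyl-tRNA synthetases 1 rose and none fell, with a median of 0.41. With no fold threshold 12 of the 20 were higher, against 32.1% of all tested genes. The rise was Vars, the valine enzyme, from 102 and 148 RPKM to 232 and 227 (0.88 ± 0.13). Its call was lost without 3 h replicate 1 (0.63), without 10 h replicate 1 (0.86), with the 4 libraries alone (0.87) and with DESeq2 (0.80). Of 21 genes of the amino acid stress response and transport 4 rose (19.0%) and 4 fell (19.0%), with a median of 0.41. Asns, asparagine synthetase, rose from 1.71 and 4.65 to 18.7 and 22.3 (2.61 ± 0.39). Slc6a9, a glycine transporter, went from 0.0170 and 0.793 to 3.57 and 4.98 (3.19 ± 0.59), with 3 h replicates far apart and a call that DESeq2 did not give (3.31). Slc7a6, an amino acid exchanger, fell from 52.4 and 40.1 to 15.3 and 15.1 (-1.60 ± 0.12) and Atf5, a stress factor, from 34.4 and 21.0 to 9.07 and 11.2 (-1.45 ± 0.19).

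Proteasome genes rose in 7 of 36 with no fall, at a median of 0.36, and the share of rises, 19.4%, was near the 17.4% of all tested genes. Of the 5 immunoproteasome genes 4 rose, with a median of 1.30, and none of the 17 cap genes did. Psmb9, an immunoproteasome protease induced by interferon, stood at 124 and 128 RPKM in naive cells, then 22.1 and 28.0 at 3 h and 124 and 89.4 at 10 h (2.08 ± 0.15). Psme2, a subunit of the proteasome activator PA28, rose from 41.7 and 44.9 to 126 and 112 (1.45 ± 0.11), above its naive 23.6 and 26.9. The count was 4 with DESeq2 and 12 on library size alone.

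Chaperones rose in 4 of 34 (11.8%) and fell in 3 (8.82%), both shares under those of all tested genes, with a median of 0.20. Hspe1, the mitochondrial co-chaperonin, rose from 90.9 and 96.5 RPKM to 296 and 281 (1.62 ± 0.09), and Sdf2l1, of the endoplasmic reticulum, from 4.68 and 6.16 to 36.5 and 25.8 (2.50 ± 0.20). Among the falls were Hspa1a and Hspa1b, stress-induced HSP70 genes with near-identical sequence whose reads may be shared. Hspa1a went from 1.67 and 2.30 to 0.156 and 0.142 (-3.74 ± 0.29) and Hspa1b from 4.37 and 4.90 to 1.10 and 1.08 (-2.09 ± 0.16).

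Of 29 G1 regulators 11 rose and 3 fell, with a median of 0.21, and DESeq2 called 7 rises. Cdkn1a, the cyclin-dependent kinase inhibitor p21, stood at 0.554 and 0.632 RPKM in naive cells, then 3.74 and 3.60 at 3 h, 32.4 and 20.7 at 10 h (2.86 ± 0.27) and 3.43 and 6.27 at 33 h, so 10 h was its highest stage of these. Cdkn2a was at 3 counts or fewer in both 3 h libraries, so its rise to 0.421 and 0.489 has no measured fold, and its call was lost in thinned libraries. E2f2, an E2F factor, fell from 25.9 and 24.2 to 8.69 and 6.73 (-1.70 ± 0.12) and stood at 42.1 and 34.9 at 33 h. Cdkn1c, the inhibitor p57, fell from 1.81 and 1.76 to 0.546 and 0.858 (-1.36 ± 0.25), a call lost without 10 h replicate 1 (-1.05) and with DESeq2 (-1.43).

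DNA replication genes rose in 22 of 46 and fell in 1, with a median of 0.76. Gins2, of the replicative helicase, went from 1.61 and 1.80 RPKM to 12.9 and 9.60 (2.71 ± 0.17), and Mcm10, a replication initiation factor, from 0.910 and 0.818 to 6.08 and 4.77 (2.67 ± 0.16). At 33 h they stood at 51.9 and 55.4 and at 39.3 and 47.9, so the 10 h level was a first step of a longer climb. The fall was Cdt1, a licensing factor, from 75.4 and 57.4 to 31.2 and 29.3 (-1.13 ± 0.12), close to its naive 36.5 and 35.1.

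The E2F motif, searched as TTTGGCGC or TTTCCCGC on both strands, was found in 12 of 37 DNA replication genes with a promoter (32.4%), against 3.43% of tested genes and 2.86% of promoters. It was in 3.83% of genes higher at 10 h and 2.64% of genes lower. Those of Cdc6, a loader of the replicative helicase, at chr11:98907901-98908200 on the plus strand, and Pole2, a subunit of DNA polymerase epsilon, at chr12:69228141-69228440 on the minus strand, are shown by the rule used above. The log2 fold changes were 2.41 for Cdc6 and 2.08 for Pole2. The kappa B matches overlapped the interferon element in 1 promoter and the E2F motif in 6, and the last pair overlapped in 2.
Cdc6: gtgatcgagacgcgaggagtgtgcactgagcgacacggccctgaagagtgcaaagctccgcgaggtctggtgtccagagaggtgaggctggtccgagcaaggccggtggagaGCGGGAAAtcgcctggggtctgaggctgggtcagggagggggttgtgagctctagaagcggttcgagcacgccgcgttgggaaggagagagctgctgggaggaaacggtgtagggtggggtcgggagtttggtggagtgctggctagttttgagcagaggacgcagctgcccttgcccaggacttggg
Pole2: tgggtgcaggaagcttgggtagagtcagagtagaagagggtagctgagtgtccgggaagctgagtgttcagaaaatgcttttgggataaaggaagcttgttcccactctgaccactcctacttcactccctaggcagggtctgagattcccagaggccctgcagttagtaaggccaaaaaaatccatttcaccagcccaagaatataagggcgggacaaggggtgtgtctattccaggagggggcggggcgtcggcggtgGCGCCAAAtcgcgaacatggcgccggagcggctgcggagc

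Mitosis and spindle genes rose in 22 of 44 and fell in 2, with a median of 0.98, and 10 of the 12 cyclins and kinases on the list rose. The number of rises was 9 without 3 h replicate 2, 10 without 3 h replicate 1, 13 without 10 h replicate 1 and 13 with DESeq2. Gtse1, a microtubule-binding protein, went from 0.882 and 0.945 RPKM to 16.2 and 9.88 (3.83 ± 0.33). Cdc25c, the phosphatase that activates CDK1, went from 0.0574 and 0.0677 to 0.493 and 0.409 (2.80 ± 0.57), no more than its naive 0.594 and 0.459 and far under 7.11 and 11.8 at 33 h, and its call was lost without 3 h replicate 2 (2.96). The falls were Foxm1, a factor of mitotic genes, from 4.56 and 4.06 to 2.36 and 2.02 (-0.97 ± 0.12), lost on library size alone (-0.64), and Cenpa, the centromeric histone, from 21.8 and 10.5 to 5.04 and 6.49 (-1.47 ± 0.36). The Cenpa call was lost on library size alone (-1.13), without 3 h replicate 1 (-0.87), without 10 h replicate 1 (-1.29), with DESeq2 (-1.56) and with the crossed replicate block (-1.46).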

How the data were processed

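PolyA RNA of sorted mouse B cells was sequenced in 12 libraries. The authors called bases with CASAVA 1.8.2, aligned reads to GRCm38 (mm10) and deposited a table of gene counts made with featureCounts. Groups were taken from the library labels. Of 27179 gene IDs, 25275 matched the annotation; mitochondrial genes, ribosomal RNA genes, X and Y genes and variable immunoglobulin segments were removed, and 12750 genes of the remaining 23700 passed the filter on low counts by group over all 12 libraries. edgeR 4.0.16 and limma 3.58.1 in R 4.3.3 gave TMM factors, robust quasi-likelihood fits over the 6 stages and glmTreat tests against a fold of 1.5, two-sided, with Benjamini-Hochberg adjustment over all tested genes at 0.05. The steps were tested on simulated data. RPKM used TMM-scaled sizes and the deposited lengths. No fold is printed for a named gene with 3 counts or fewer in both libraries of a stage, and such floors cover counting error only. List medians include the fitted values of such genes. With them bounded or left out, the median was 1.73 for interferon-stimulated genes, 0.02 for the Bcl2 family and 0.29 for amino acid stress response and transport. It was 0.90 for acyl-CoA handling, -1.63 for costimulatory genes and -0.30 for lipid efflux.

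Named genes were Nr4a1, Acot7 and Rasa3, the 2 largest called changes each way in each list and the leading gene of each marker list. Also named were the 8 largest changes each way above a mean log2 CPM of 5. That ranking took only called genes whose 3 h and 10 h libraries did not overlap. Maff, Oas3, Trim30a, Cdc6 and Pole2 were added for their promoters, and Flt3, Bcl2, Bcl2a1a and Bcl2a1d to complete their lists, after the values were seen. A few results that need items withheld for evaluation are not reported. Members and lists were chosen with earlier results of these data known.

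Alternatives were RLE, upper quartile and no scaling factors, the 4 libraries alone, removed genes kept, ribosomal protein genes removed, DESeq2 1.42.0, no fold threshold, no filter, at least 10 counts in every library, other dispersion settings, replicate blocks, thinned libraries and leaving out each library. Promoters of 300 bases were taken from RefSeq, build GRCm38.p6, and matched 9919 tested genes by gene ID. The kappa B motif was searched by name in its degenerate form.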

Additional observations from a re-analysis of the deposited data

How the results depend on the processing

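Of 119 genes named by rule, 97 stayed on the same side of the test, called or not, under each of the 19 other settings that tested them, 20 lost a call under at least 1, 2 gained a call and 0 changed direction from 3 h to 10 h. The 2 that gained a call were Cd68 and Hbb-b1. Genes added after the values were seen are not in this count. Library size alone shifts every log2 fold change by nearly the same amount, and with it 3432 genes were up, 1004 down and 2317 down with no fold threshold, and falls numbered 9 for Ras and Rap regulators, 6 for B cell receptor genes, 3 for quiescence genes, 0 for ribosome biogenesis and 1 for RNA polymerase I and III, with rises of 42 for mitochondrial ribosomal proteins, 55 for the respiratory chain, 12 for the citric acid cycle and 12 for the proteasome. Upper quartile scaling gave 7 falls for ribosome biogenesis and 11 rises for the citric acid cycle. DESeq2 called 1396 genes up, with 17 respiratory chain, 3 citric acid cycle, 4 proteasome, 7 G1 and 13 mitosis rises. With no fold threshold 4094 genes were up and 3848 down, with falls of 12 B cell transcription factors, 51 ribosome biogenesis and 16 RNA polymerase genes and rises of 52 mitochondrial ribosomal protein, 61 respiratory chain, 14 citric acid cycle, 26 proteasome and 35 DNA replication genes. At least 10 counts everywhere left 2 cytokine falls. Leaving out 1 library gave 1798 to 2349 genes up and 1357 to 1885 down, 3 to 7 quiescence falls, and rises of 13 to 30 interferon-stimulated, 8 to 14 cholesterol and fatty acid, and 9 to 22 mitosis genes. The one reversal was in the naive to 3 h step, where the log2 fold change of Slc6a9 was 3.48 with both 3 h replicates, 4.24 without replicate 1 and -1.24 without replicate 2. The cause was not tested.

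With 2 libraries a stage and no spike-in, the shares of rises and falls depend on the scale chosen. Lists near a median of 0 cannot be given a direction.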
